A study of Gallus gallus with 5 samples.

Results

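H3R2me2s regions without H4R3me2a were stretches of the chicken genome where histone H3 dimethylated symmetrically at arginine 2 (H3R2me2s) was called in both replicates and no H4R3me2a peak was called. H4R3me2a is histone H4 dimethylated asymmetrically at arginine 3. A region was the run of bases under an overlapping pair of H3R2me2s peaks, 1 from each replicate, and it was kept if no peak of either H4R3me2a list touched it by 1 bp. Of 73377 H3R2me2s regions, 5031 met this rule, 6.86% of all (95% Wilson interval 6.68 to 7.04). They covered 1.96 Mb. These regions were chosen by the peak calls themselves, so their lack of H4R3me2a is how they were defined and not a result.

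The data were 5 lists of ChIP-seq peaks from nuclei of immature (polychromatic) erythrocytes, the nucleated red cells of birds, in G0. There were 2 libraries for each mark and 1 of input chromatin. All chromatin was fixed with 0.5% formaldehyde and sheared to fragments of 200 bp; no treatment, genotype or age is given, and for every library the labels give Lohmann as the breed in one field and Bovan in another. For both marks, replicate 1 was sequenced on SOLiD (10.3 to 14.2 M tags after filtering) and replicate 2 on Illumina (31.2 to 35.1 M). Platform, depth, caller and control thus all changed with the replicate number. A size selection of 100 to 250 bp is given for the replicate 1 libraries only. The labels and file headers of the Illumina libraries disagree on the numbers of the alignment files, and each library was taken as labelled. For H3R2me2s, H4R3me2a and input, the headers give 11, 12 and 10 and the labels 10, 11 and 12. The header number of the H3R2me2s list is thus the label number of H4R3me2a. That of the H4R3me2a list is the label number of input. Which is right was not tested, and all regions rest on the labels. The design text calls the libraries biological replicates without saying whether animals differed, and peak lists hold no expression values against which the cell type could be checked.

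Both marks are laid down by protein arginine methyltransferases. Symmetric dimethylation is the product of enzymes such as PRMT5, and the asymmetric mark on H4 is the product of PRMT1, which is known from active chromatin, including the globin genes of chicken red cells. H3R2me2s has been described at promoters and distal regulatory sites as a mark recognised by WDR5, a subunit shared by H3K4 methyltransferase complexes. A site that carries one mark and not the other is of interest because the enzymes differ.

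The H3R2me2s regions fell into 4 classes by what H4R3me2a list touched them. H4R3me2a peaks of both replicates touched 46307 regions (63.1%), peaks of replicate 2 alone touched 13188 (17.97%) and peaks of replicate 1 alone touched 8851 (12.1%). The 5031 regions without H4R3me2a were thus the smallest class. They lay on 4998 distinct peaks of replicate 1 and 4966 distinct peaks of replicate 2, so few peaks carried more than 1 such region. Taken within a single replicate, lack of H4R3me2a was far more frequent. In replicate 1, 31613 of 103231 H3R2me2s peaks (30.6%) touched no H4R3me2a peak of that replicate, and in replicate 2, 31588 of 120536 peaks (26.2%) did not. Where no peak was called, the mark may still be present below the threshold.

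Regions without H4R3me2a were narrow. Their median width was 391 bp, with quartiles of 334 and 470 bp, against 617 bp for regions touched in both lists. The median was lower on each of the 27 chromosomes that held 25 or more of these regions, with differences of −297.5 to −182.5 bp. Within single replicates the medians were 601 against 800 bp in replicate 1 and 443 against 711 bp in replicate 2, a mean difference of −234 ± 48.8 bp (SD, n = 2 replicates). The share of H3R2me2s regions without H4R3me2a fell as width rose. It was 28.8% among regions of 1 to 100 bp and 16.3% among those of 334 to 400 bp. Among those of 601 to 800 bp it was 1.90%, and no region among 1878 wider than 1500 bp lacked H4R3me2a. The narrowest width in the H3R2me2s replicate 2 list was 334 bp, which is also the fragment length that MACS estimated for that library, and 36.9% of the regions without H4R3me2a lay on a replicate 2 peak within 100 bp of that minimum. Of all regions touched in both lists, 8.96% did, and 28.4% after weighting to the same widths. A narrow region has fewer bases that a peak of the other mark can touch, so this relation is partly fixed by the rule. The regions touched in both H4R3me2a lists were therefore weighted to the same width distribution in bins of 50 bp, and "width-matched" refers to these 46307 weighted regions.

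H3R2me2s itself was weaker at these regions. Fold enrichment is the authors' value per peak. In replicate 1 it was taken against a control library. Replicate 2 was called without a control, so its fold is against the local background of the ChIP library itself. Folds were read as percentiles within each list, because levels cannot be compared between platforms, and a mean percentile over the 2 lists joins unlike measures. Regions without H4R3me2a had a median fold enrichment of 8.32 in replicate 1 (quartiles 7.0 and 9.89) and 2.40 in replicate 2 (1.996 and 2.91). The width-matched regions had medians of 10.5 and 2.59. As percentiles, the medians were 29.3 against 56.0 in replicate 1 and 29.0 against 36.7 in replicate 2. The percentile in replicate 1 was lower on 27 of 27 chromosomes, and that in replicate 2 on 24 of 27. Tags per peak in replicate 1 had a median of 32.0 against 44.0, and the pileup at the summit in replicate 2 a median of 53.0 against 78.0. Tags are counted over the whole peak, whose width was not matched. The replicate 1 peaks had a median width of 624 bp against 699 bp. With each replicate split by its own H4R3me2a list, the median percentile was lower by 16.2 points in replicate 1 and by 11.9 points in replicate 2, a mean of −14.1 ± 3.0 (SD, n = 2). An exact 2-sided permutation over 2 replicates cannot give a p below 0.5, so no difference here was testable over libraries.

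**Figure D1:**
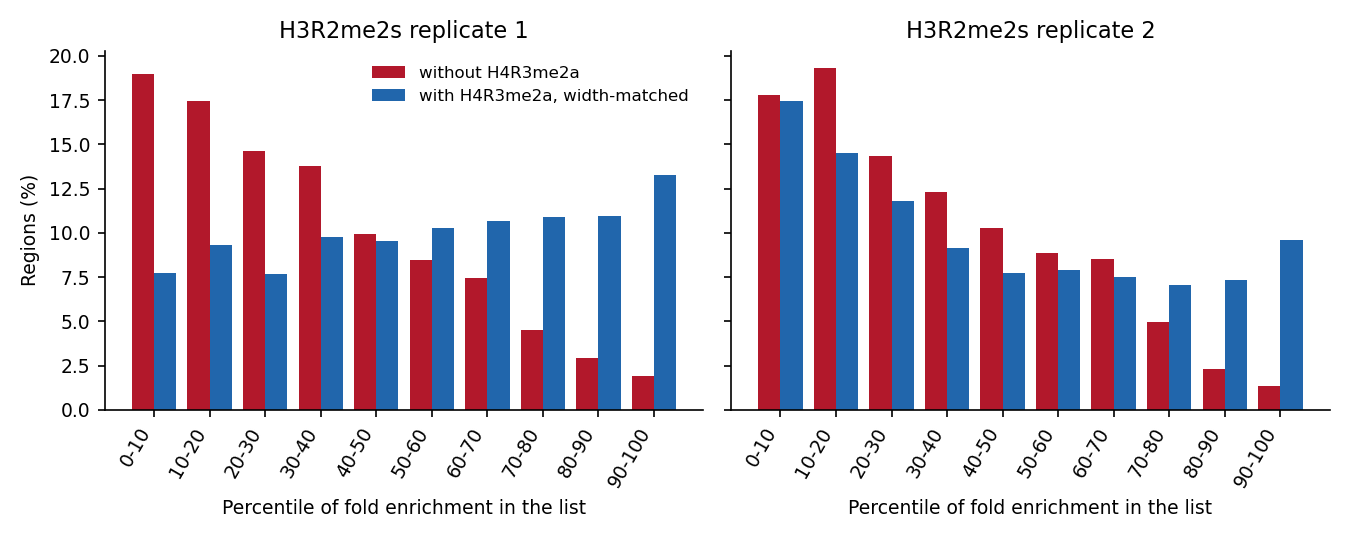
Percentile of H3R2me2s fold enrichment (x axis, steps of 10) against percent of regions (y axis) in the replicate 1 and replicate 2 lists. Red bars are the 5031 regions without H4R3me2a and blue bars the width-matched regions with H4R3me2a in both lists; in the top step of replicate 1 stand 1.91% of the red and 13.3% of the blue regions.

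Low enrichment in both replicates was the most frequent case. Of the 5031 regions, 2694 (53.5%, 95% interval 52.2 to 54.9) lay under the 50th percentile in both lists, against 21.8% of width-matched regions. None lay at or above the 90th percentile in both, against 0.592%. The upper limit of the interval for that 0 was 0.0763%. The share of regions without H4R3me2a fell in steps with the mean percentile of both lists, from 38.4% of 744 regions in the lowest step to 5.73% of 16940 in the step from 40 to 50 and 0.0605% of 1652 in the highest. Fold enrichment in the 2 replicates ran weakly opposite among these regions, with a Spearman rho of −0.158 over 5031 regions. Among the 46307 regions with H4R3me2a it was −0.266. Regions that H4R3me2a touched in replicate 1 alone had median percentiles of 75.1 in replicate 1 and 9.33 in replicate 2, and those touched in replicate 2 alone had 28.0 and 66.3. In each list, the medians were lower in the classes that no H4R3me2a peak of that list touched. Regions without H4R3me2a, at 29.3 and 29.0, were untouched in both lists. A low median in either list was thus not particular to them.

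**Figure D2:**
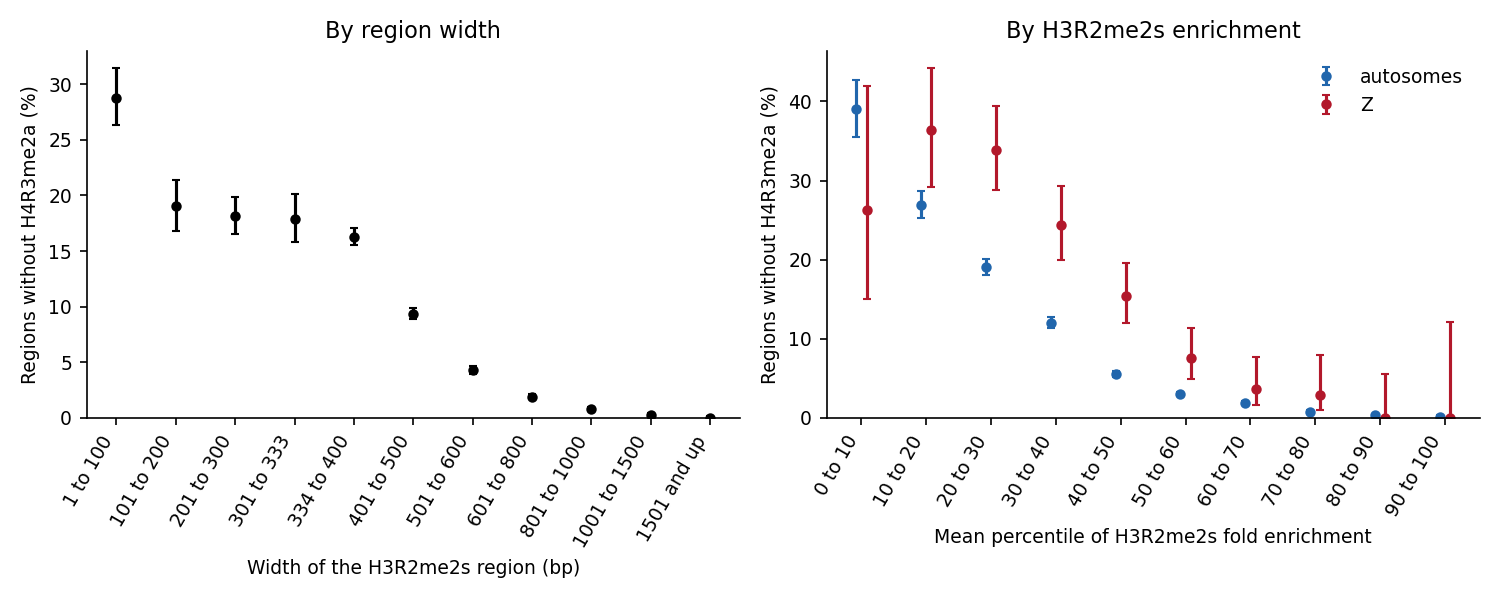
Percent of H3R2me2s regions without H4R3me2a (y axis) by region width in bp (left) and by the mean percentile of H3R2me2s fold enrichment over both lists (right, autosomes in blue and Z in red). Points are shares and bars 95% Wilson intervals; the share falls from 28.8 to 0% over the widths, and on Z the interval lies wholly above that of the autosomes from the second step to the sixth.

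Most regions without H4R3me2a lay close to an H4R3me2a peak. The median distance to the nearest peak of either list was 886 bp, with quartiles of 304 and 2187 bp, and 89.3% (88.4 to 90.1) lay within 5 kb. The nearest peak was at a median of 1682 bp in replicate 1 and 1383 bp in replicate 2. Width-matched regions with H4R3me2a, measured to the nearest H4R3me2a peak that did not touch them, had medians of 883 bp over both lists, 1451 bp in replicate 1 and 1527 bp in replicate 2. The medians over both lists thus differed by 3 bp. By chromosome the direction was mixed. The median was lower for regions without H4R3me2a on 18 of 27 chromosomes and higher on 9, with differences of −352 to 2399 bp. The peaks that touch a width-matched region run on into its flanks and are left out, so a further peak close by is largely precluded by the rule, and the shares at short distance are a description. Under 100 bp lay 10.3% of regions without H4R3me2a and 2.94% of width-matched ones, and at 10 kb or more lay 5.53% and 3.88%. Within single replicates the medians were 2395 against 1513 bp in replicate 1 and 1989 against 1886 bp in replicate 2, so the size of the difference was not shared by the replicates (493 ± 551 bp, SD, n = 2).

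**Figure D3:**
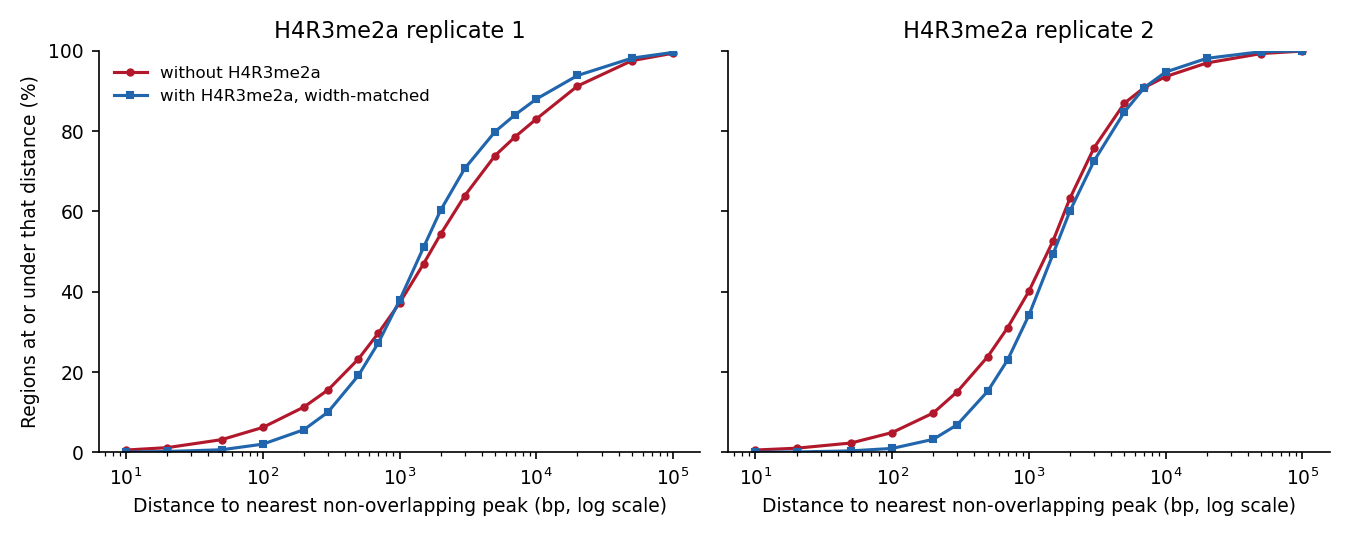
Distance to the nearest H4R3me2a peak that does not touch the region (x axis, bp, log scale) against the percent of regions at or under it (y axis), for the replicate 1 and replicate 2 lists. Red is the 5031 regions without H4R3me2a and blue the width-matched regions with it; at 100 bp the red curve stands at 6.22 and 4.95% and the blue at 2.06 and 0.996%, and in replicate 1 the curves cross near 1 kb.

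The rule places its threshold at 1 bp. Just inside it, 54 regions lay under 10 bp from an H4R3me2a peak, with a median width of 283 bp and median folds of 9.21 and 2.60 in replicates 1 and 2. On the other side, 121 regions had 1 to 10 bp under H4R3me2a peaks, with median folds of 10.4 and 2.26. Their median width was only 9 bp, so many could lie wholly under an H4R3me2a peak and still be in this group. It is thus not a like counterpart of the 54 regions. Of the 5031 regions, 1219 (24.2%, 23.1 to 25.4) belonged to an H3R2me2s peak that touched an H4R3me2a peak elsewhere along its length. These had a median width of 333 bp and lay a median of 131 bp from H4R3me2a. The other 3812 regions belonged to H3R2me2s peaks that met no H4R3me2a peak anywhere. They had a median width of 399 bp, lay a median of 1364 bp from the nearest H4R3me2a peak and were on Z in 7.48% of cases. Both H3R2me2s summits lay inside the region in 66.3% of the 5031 regions, against 52.5% of width-matched regions. Without width matching the latter share was 68.5%, so the direction turned.

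At 1 kb, called peaks of both marks covered a smaller share of regions without H4R3me2a than of width-matched regions in both replicates. At 1 kb from the centre, H4R3me2a peaks of replicate 1 covered 16.8% of regions without H4R3me2a and 31.4% of width-matched ones, and at 5 kb 17.5 and 26.5%. Peaks that touch a width-matched region run on into its flanks and are counted here. The H4R3me2a difference near the region is thus partly fixed by the rule. H3R2me2s peaks of replicate 1 covered 22.8 and 32.9% at 1 kb and 21.4 and 29.5% at 5 kb. The H3R2me2s peaks on which the regions themselves lie are counted too, and these were wider for width-matched regions. Their upper quartiles were 1043 against 736 bp in replicate 1 and 974 against 713 bp in replicate 2. The H3R2me2s difference near the region is thus in part the same peaks running on. In replicate 2 the 2 kinds of region were closer, at 10.1 and 10.7% for H4R3me2a and 14.4 and 15.9% for H3R2me2s at 5 kb. The direction in replicate 2 was not the same at all distances between 1 and 5 kb. Over much of the outer part, H4R3me2a peaks covered a larger share of regions without H4R3me2a than of width-matched ones. H3R2me2s peaks did so by a small margin at some positions there. The lower cover at 1 kb was thus not kept along the flank in replicate 2. Cover by H4R3me2a rose from 0 at the centre, where the rule excludes it, to about its value at 5 kb by 1 kb.

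**Figure D4:**
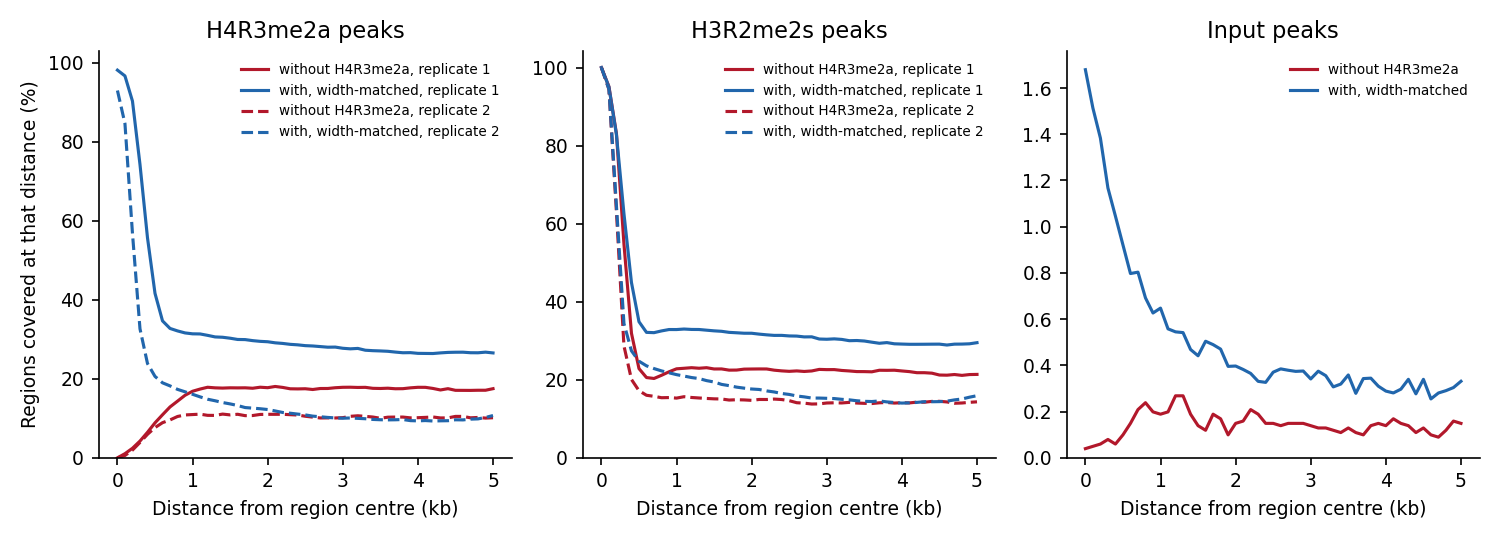
Distance from the region centre (x axis, kb, both sides averaged) against the percent of regions whose position at that distance lies in a peak (y axis), for H4R3me2a, H3R2me2s and input peaks. Red is regions without H4R3me2a and blue width-matched regions with it, with solid lines for replicate 1 and broken lines for replicate 2. At 1 kb in replicate 1 the red H4R3me2a line stands at 16.8% and the blue at 31.4%. H4R3me2a peaks that touch the blue regions are counted, so the gap near the centre is partly fixed by the rule. The H3R2me2s peaks on which the regions lie are counted as well.

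Few of these regions lay on input peaks, the background of chromatin without antibody. There were 13 of 5031 that overlapped an input peak, 0.258% (0.151 to 0.442), against 4.24% of width-matched regions and 5.44% of all 73377 H3R2me2s regions. The low share was not particular to them: regions touched by H4R3me2a in replicate 1 alone had 0.328%, and those touched in replicate 2 alone 3.93%. Regions touched in both lists had 7.40% before width matching. The share was thus low in the classes that no replicate 2 H4R3me2a peak touched. That list was called without a control, and the part of this in the low share was not tested. The share of regions without H4R3me2a that lay on input peaks was below that of width-matched regions on 27 of 27 chromosomes. With each replicate split by its own H4R3me2a list, the shares were 1.66 against 3.57% in replicate 1 and 0.712 against 3.36% in replicate 2, a mean difference of −2.27 ± 0.524 points (SD, n = 2). A further 11.2% lay within 10 kb of an input peak without touching it, against 16.8%. With regions matched on fold percentile as well as width, the share with H4R3me2a was 3.09%. Of the 13 regions on input peaks, 2 were on Z.

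Runs of regions without H4R3me2a, with gaps under 10 kb and no region touched by H4R3me2a between, were counted. Of the 5031 regions, 4370 (86.9%) stood alone, 558 were in 279 pairs, 99 in 33 runs of 3 and 4 in a single run. Any touched region ends a run and 6.86% of all regions were of this kind, and runs were not counted for other regions, so these counts are a description. A next H3R2me2s region within 10 kb, on other peaks, itself lacked H4R3me2a in 8.12% of 6183 cases (7.46 to 8.83). Both sides of each region were looked at, so neighbouring regions without H4R3me2a were counted from each side. The interval does not allow for this and is too narrow. For width-matched regions the neighbour lacked H4R3me2a in 6.69%, and 6.86% of all regions were of this kind. That neighbour carried H4R3me2a in both lists in 61.7% of cases, against 65.3%. It carried H4R3me2a in replicate 2 alone in 19.9 against 13.8%, and in replicate 1 alone in 10.3 against 14.2%. The nearest other H3R2me2s region could also lie on the same peak. Width-matched regions lay on wider replicate 1 peaks, with an upper quartile of 1043 bp against 736 bp. How much this adds to the differences that follow was not tested. That nearest region lay a median of 1986 bp away, against 1231 bp, and within 5 kb in 73.9% (72.7 to 75.1) against 80.8%. The second difference turned to 7.81 points higher when the upper 50% of each H4R3me2a list by fold was used. The median distance, with all peaks, was higher on 27 of 27 chromosomes. Within replicates the share within 5 kb was lower by 5.99 points in replicate 1 and by 1.03 in replicate 2 (mean −3.51 ± 3.51, SD, n = 2), a difference no larger than its spread. Of 1048 windows of 1 Mb, 907 held a region without H4R3me2a. Those 907 had a median of 4 and at most 25. The windows with 25 were chromosome 11:1000001-2000000, where they made up 10.3% of 242 H3R2me2s regions, and chromosome 20:8000001-9000000, where they made up 13.7% of 182; these windows were chosen after their values were seen.

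The longest run held 4 regions over 8.27 kb at chromosome 21:5908637-5916901. H3R2me2s peaks covered 42.0% of it in replicate 1 and 20.4% in replicate 2. Between its regions, H4R3me2a peaks took up 16.1% of the run in the replicate 1 list and 0% in the other, and no input peak lay there. Its 4 regions had H3R2me2s folds of 5.60 to 13.1 in replicate 1 and 1.66 to 2.34 in replicate 2. The shortest of the 33 runs of 3 spanned 823 bp at chromosome 2:40741286-40742108, with H3R2me2s on 94.7 and 86.03% of it. It was followed by 1.15 kb at chromosome 5:52886789-52887937, 1.27 kb at chromosome 8:29719061-29720332 and 1.29 kb at chromosome 12:10806547-10807839. H4R3me2a and input peaks touched none of these 4 runs. Each of these 4 runs rested on 2 peaks of replicate 2, so its 3 regions were not separate sites.

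The Z chromosome stood apart from the autosomes in the shared regions. Z is the sex chromosome that male birds carry as a pair and female birds as a single copy; sex is not given, so no correction for copy number was made. Of 1795 H3R2me2s regions on Z, 329 (18.3%, 16.6 to 20.2) lacked H4R3me2a, against 4693 of 71338 (6.58%, 6.40 to 6.76) on autosomes. Z held 6.54% of the regions without H4R3me2a and 1.995% of the width-matched ones. Without width matching, the second share was 2.004%. By width, the share without H4R3me2a was 33.0% on Z and 17.4% on autosomes up to 400 bp, 20.4 and 6.62% from 401 to 600 bp and 6.04 and 1.08% from 601 bp. By enrichment, it was 24.4 and 12.0% in the step from 30 to 40 and 15.4 and 5.53% in the step from 40 to 50. In the lowest step of 38 Z regions it was 26.3%, under the 39.1% of autosomes, with an interval of 15.0 to 42.0%.

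The size of the Z difference moved with the replicate. In replicate 1, 38.2% of Z peaks and 30.4% of autosomal peaks of H3R2me2s touched no H4R3me2a peak of that replicate; in replicate 2 the shares were 43.1 and 25.7%. With width matched, Z held 3.62% of the replicate 1 peaks without H4R3me2a and 3.48% of those with it, a difference of 0.147 points. In replicate 2 it held 4.88 and 2.12%, a difference of 2.76 points (mean 1.45 ± 1.85, SD, n = 2). The unmatched share without H4R3me2a was thus higher on Z in both replicates, while the mean of the width-matched difference was smaller than its spread. Called peaks were sparser on Z in all 4 ChIP lists. H3R2me2s had 40.2 and 48.0 peaks per Mb there in replicates 1 and 2, against 104 and 122 on autosomes. H4R3me2a had 33.9 and 33.8, against 78.5 and 116.

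Regions without H4R3me2a on Z were also farther from H4R3me2a than those on autosomes, where called peaks of both marks were denser. The medians that follow compare Z with autosomes, and not with Z regions that carry H4R3me2a. Their nearest H4R3me2a peak lay a median of 3997 bp away, against 828 bp on autosomes, and their nearest other H3R2me2s region 12950 bp away, against 1862 bp. Their median width was 412 bp, against 390 bp. Their median folds were 7.0 and 2.75, at percentiles of 13.6 in replicate 1 and 44.7 in replicate 2, whereas autosomal ones stood at 31.4 and 27.9. The median pileup in replicate 2 went the other way from the percentile, at 36.0 on Z and 55.0 on autosomes. Median tags in replicate 1 were 32.0 on Z and on autosomes. Of the 278 regions that lay 10 kb or more from any H4R3me2a peak, 113 were on Z, 40.6% (35.04 to 46.5). Among width-matched regions as far from another H4R3me2a peak, 9.92% were on Z. Where the next H3R2me2s region was 10 kb or more away, 23.9% (21.0 to 27.1) of Z regions lacked H4R3me2a, and where it was nearer, 14.3% (12.3 to 16.6) did. On autosomes these shares were 6.78 and 6.55%. In windows of 5 Mb along Z, the lowest share was 13.5% (9.48 to 18.8) of 208 regions at Z:70000001-75000000. The highest was 32.8% (22.8 to 44.7) of 67 regions at Z:15000001-20000000. Both windows were chosen after their values were seen.

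Among autosomes the differences were smaller. The share without H4R3me2a was 7.35% (7.07 to 7.65) on macrochromosomes 1 to 5, 6.78% (6.36 to 7.22) on intermediate chromosomes 6 to 10 and 5.59% (5.33 to 5.87) on microchromosomes, which in birds are small and rich in genes. Over the 27 autosomes above 1 Mb it ranged from 1.88% on chromosome 25 to 7.91% on chromosome 3. It rose with the log10 of spanned length, the highest peak end of the chromosome, with a Pearson r of 0.823 and a Spearman rho of 0.863. These are given as a description, since chromosomes share the libraries and differ in peak density and base composition. Microchromosomes held 30.1% of the regions without H4R3me2a and 38.9% of the width-matched ones. This direction was not shared by the replicates, and with the upper 50% of each H4R3me2a list the difference turned to 4.40 points. Replicate 1 gave 29.1 and 33.7% and replicate 2 gave 28.1 and 27.6%, a mean difference of −2.01 ± 3.61 points (SD, n = 2). Per Mb, regions without H4R3me2a were nonetheless denser on microchromosomes, at 8.58, with 5.77 on intermediate chromosomes, 4.41 on Z and 3.65 on macrochromosomes. Among these 4 classes, H3R2me2s regions of all kinds were also densest on microchromosomes, at 153 per Mb, and sparsest on Z, at 24.1.

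**Figure D5:**
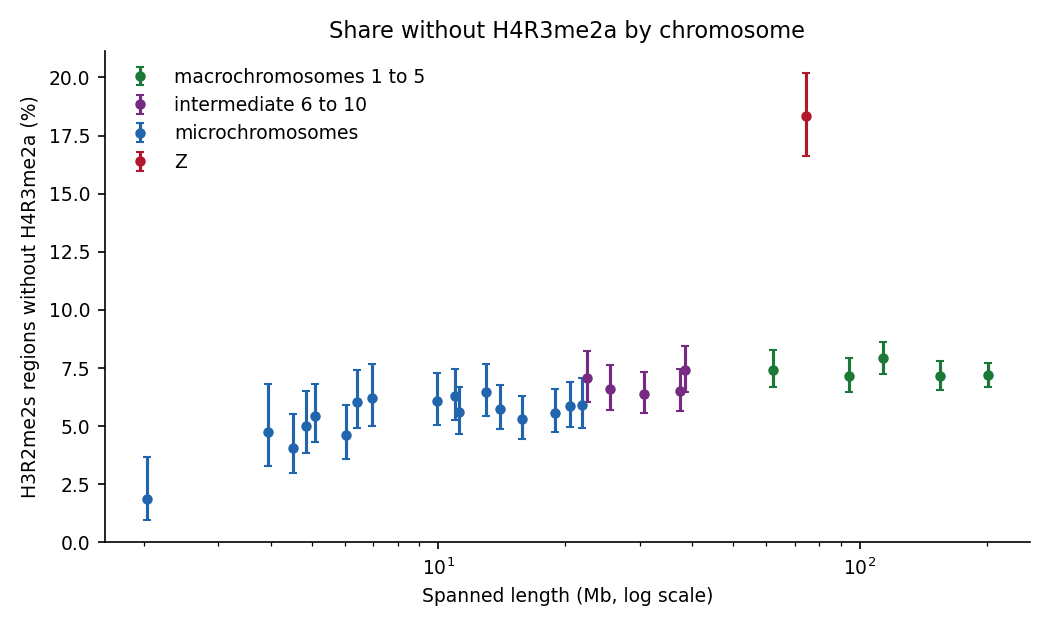
Spanned length of each chromosome above 1 Mb (x axis, Mb, log scale) against the percent of its H3R2me2s regions without H4R3me2a (y axis). Points are chromosomes, coloured by size class, and bars 95% Wilson intervals; Z stands at 18.3% and the 27 autosomes between 1.88 and 7.91%.

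Regions also differed among themselves by distance from H4R3me2a. The 516 under 100 bp had a median width of 283 bp and median percentiles of 37.3 in replicate 1 and 26.4 in replicate 2, and 95.7% belonged to an H3R2me2s peak that touched H4R3me2a. The 1876 from 500 bp to under 2 kb had a width of 399 bp and percentiles of 29.4 and 21.9. The 278 at 10 kb or more had a width of 402 bp and percentiles of 21.3 and 51.5. None of them was on an input peak, where 0.258% of all 5031 regions lay. The fold percentile was thus lower in replicate 1 and higher in replicate 2 in the remote regions than in the nearest class. The median pileup in replicate 2 went the other way, at 36.0 in the remote regions and 71.0 in the nearest class. Microchromosomes held 36.4% of the nearest class and 3.24% of the remote class. On microchromosomes the median percentiles were 34.7 and 16.5, and on macrochromosomes 28.04 and 36.4. The median replicate 2 pileup was 68.0 on microchromosomes and 47.0 on macrochromosomes, again opposite to the replicate 2 percentile.

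Regions were named by a fixed ranking, which took those off input peaks with the best mean percentile of H3R2me2s fold. The first was chromosome 12:5887547-5888033, 487 bp wide, with an H3R2me2s fold of 14.4 and 39 tags in replicate 1 and a fold of 7.32 and a pileup of 159 in replicate 2. H4R3me2a peaks lay 181 and 226 bp from it in replicates 1 and 2, and an input peak lay 0.628 kb away. The second, chromosome 2:91284175-91284178, was 4 bp wide, with folds of 13.9 and 5.50. Its H4R3me2a peaks lay 143 and 5 bp away. The third, chromosome 2:92561234-92561644, had folds of 13.1 and 6.27, with H4R3me2a 149 and 307 bp away. Of the 10 first-ranked regions, 9 belonged to an H3R2me2s peak that touched an H4R3me2a peak outside the region, and 2 were under 10 bp wide. The exception was chromosome 3:13631179-13631720, 542 bp wide. Its fold was 13.4 with 44 tags in replicate 1 and 4.32 with a pileup of 54 in replicate 2. The nearest H4R3me2a peaks were 3.66 and 0.281 kb from it, and the nearest input peak 28.3 kb. None of the 10 was on Z, where 6.54% of all 5031 regions lay.

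The widest regions off input peaks were in the lower part of the replicate 2 list. Chromosome 27:4769609-4770934 was 1326 bp wide, with folds of 6.80 and 1.84 and H4R3me2a peaks 360 and 479 bp away. Chromosome 8:22612122-22613430 was 1309 bp wide, with folds of 9.34 and 1.69 and H4R3me2a peaks 92 and 32 bp away. Chromosome 28:2019818-2021036 was 1219 bp wide, with folds of 11.7 and 2.02. H4R3me2a peaks lay 1809 and 2042 bp from it.

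The regions farthest from H4R3me2a were all 3 on Z. At Z:2368860-2369292, 433 bp wide, the H3R2me2s fold was 6.97 with 31 tags in replicate 1 and 2.51 with a pileup of 31 in replicate 2. The nearest H4R3me2a peaks lay 132 and 303 kb away in replicates 1 and 2. At Z:4294309-4295044 the folds were 4.72 and 3.06, with H4R3me2a 92.5 and 97.5 kb away. At Z:31032816-31033399 they were 6.84 and 3.22, with H4R3me2a 89.4 and 120 kb away. In replicate 1 these 3 stood at percentiles of 0.310 to 12.3. The region of best mean percentile on Z was Z:28031837-28032386, 550 bp wide, with folds of 12.6 and 4.08 at percentiles of 75.1 and 82.1. H4R3me2a lay 54.8 kb from it in replicate 1 and 2.59 kb in replicate 2, and input 59.6 kb. On intermediate chromosomes it was chromosome 6:7160026-7160226, with folds of 12.5 and 4.32 and H4R3me2a 1728 and 72 bp away. Genes at these places were not analysed here.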

How the data were processed

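ChIP-seq peak lists of 5 libraries were analysed, as deposited. Per the file headers, MACS 1.4.2 made the replicate 1 lists (p-value cutoff 1e-05) against 1 control library of 23.3 M tags that both marks share. MACS 2.0.10.20120913 made the replicate 2 and input lists (q-value cutoff 0.05) and had no control. All kept 1 tag per position. The deposited values per peak were fold enrichment (a ratio), pileup (a signal) and −log10 of the p-value and q-value for Illumina, and tag counts, a score (10 times −log10 p) and the false discovery rate in percent for SOLiD. They were used only within a list. Folder names in the replicate 1 headers hold gal3; the build of the Illumina lists is not given in the sources used here, and coordinates are as deposited. No list pooled libraries.

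Overlap, distance, width weighting and Wilson intervals were computed with Python 3.11.15, numpy 2.4.6, pandas 2.3.3 and scipy 1.17.1, and checked on simulated peak lists. Intervals cover counting error only and treat regions as independent, which neighbours are not. No test across regions was made; differences are also given within each replicate number, which marks the platform. Named regions were those off input peaks with the 10 best mean fold percentiles (and the best per chromosome class), the 3 widest, the 3 farthest from H4R3me2a and the 5 longest runs, shorter spans first among ties. Members and lists were chosen with earlier results of these data known.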

Additional observations from a re-analysis of the deposited data

Results flagged for a closer look

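The share on microchromosomes differed in direction between the replicates. With width matched, H3R2me2s peaks without H4R3me2a were on microchromosomes less often than those with it in replicate 1, by −4.56 points, and more often in replicate 2, by 0.542 points. This difference between the replicates was not tested, and platform, depth, caller and control differ between them. It was flagged because the libraries moved in opposite directions.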

How the results depend on the processing

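Of 118 alternative values, 22 came from settings added after the data were seen (matching on fold percentile, H3R2me2s peaks that touch no H4R3me2a peak, Z left out). Differences are regions without minus regions with H4R3me2a. The number of regions was 2370 (3.23%) when an H4R3me2a peak within 1 kb counted, 261 (1.51%) in the upper 50% of the H3R2me2s lists and 19782 (26.96%) with the upper 50% of the H4R3me2a lists. In single replicates, which count H3R2me2s peaks of 1 list and not shared regions, it was 31588 to 31613 (26.2 to 30.6%). With the 1 kb setting the differences were 1662 bp in distance, −24.5 points for an H3R2me2s neighbour within 5 kb, 8.41 for Z, −14.6 for microchromosomes and −3.43 for input. With the upper 50% of H4R3me2a lists the neighbour and microchromosome differences turned to 7.81 and 4.40 points, the fold percentile difference was −21.3 and that for input −7.15. With the upper 50% of H3R2me2s lists those for Z, fold percentile and input were 1.81, −8.55 and −6.65. With fold percentile matched as well, those for neighbours, microchromosomes and input were −12.3, −12.9 and −2.83. Without width matching, those for fold percentile and input were −22.1 and −7.15; with 50% cover required, input was −4.62; with close regions joined, width was −284 bp. The distance difference, 3 bp in the report, ran from −248 to 1662 bp and so had no stable sign. The cause of these shifts was not tested.

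Pairing by replicate number, as a replicate block, gave a mean of 31600 H3R2me2s peaks (28.4% of a list) and mean differences of 1.45 points for Z, −2.01 for microchromosomes and −2.27 for input; exact permutation over 2 pairs cannot go below p = 0.5. Without replicate 1 or without replicate 2, the differences ranged from −268 to −199 bp in width, 103 to 882 bp in distance, −5.99 to −1.03 points for neighbours, 0.147 to 2.76 for Z, −4.56 to 0.542 for microchromosomes, −16.2 to −11.9 for fold percentile and −2.64 to −1.90 for input. Narrower width, lower fold percentile and fewer input peaks kept their direction in every alternative run, and so did the higher share on Z. All these runs used the same 5 lists, and the direction in width is partly fixed by the rule. The shared directions are thus a description and not independent support. A region without a called H4R3me2a peak may carry the mark below threshold; the part of depth in this was not tested.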
